A study of Macaca mulatta with 24 samples.

Results

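In every tissue measured, the transcripts described here were low in some fetuses and counted in others, not always the same fetuses in each tissue. They were chosen by their measured counts, with no use of treatment or animal. In each of the lung, liver and hippocampus tables a transcript had to hold 3 or fewer counts, called off, in at least 2 of 8 libraries and 20 or more counts, called on, in at least 2 of 8. Of 45579 transcripts, 236 met this rule in all 3 tissues. The same rule took 1737 transcripts in lung, 1885 in liver and 1783 in hippocampus. Of these transcripts, 888 met it in exactly 2 tissues and 2921 in exactly 1. The on and off values that follow from the rule are a description. The rule did not use the animal or the treatment behind a library, but the tests of both were run on the counts that chose the transcripts.

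The libraries were RNA-seq from 8 rhesus macaque fetuses, each sampled in lung, liver and hippocampus, giving 24 libraries. In the clinical group, the mothers of 4 fetuses received an intramuscular mixture of betamethasone phosphate and betamethasone acetate, 0.25 mg/kg given 2 times 24 h apart. In the oral group, the mothers of 4 fetuses received betamethasone phosphate by mouth, 0.15 mg/kg given 3 times 12 h apart. All were delivered 5 days after treatment, at 132 to 133 days of gestation in the clinical group and 127 to 132 days in the oral group. Every fetus was therefore exposed to a steroid, and a comparison with unexposed fetuses was not analysed here. Library labels carry an animal number that is shared by the 3 tissues of a fetus, and animals are called clinical animal 1 to 4 and oral animal 1 to 4 in the order of those numbers. The labels do not give the sex of a fetus.

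Betamethasone crosses the placenta and acts through the glucocorticoid receptor, a transcription factor that raises or lowers many genes. It is given before preterm birth to mature the fetal lung. A transcript is 1 of the RNA forms made from a gene, so that a transcript can be missing while its gene is still read. Transcripts present in some individuals and missing in others are known from sex-linked genes, from inherited deletions and from inherited splice variants, whose state is then the same in every tissue where the gene is active. Which of the 236 transcripts are of such kinds was not tested. The files name transcripts by Ensembl transcript numbers and do not pair them with genes, so no gene symbol, sequence or function is given, several of the 236 may belong to 1 gene, and the labelled tissues could not be checked against marker genes.

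Library totals ran from 21088272 to 35254898 counts. The 236 transcripts together made up 456 to 812 CPM (the count scaled by the library total) in lung, 325 to 525 CPM in liver and 314 to 468 CPM in hippocampus. Sequencing runs, as the sample descriptions number them, did not match the treatments fully. In the lung, clinical animals 1 and 2 came from 1 run and the other 6 animals from another. In the hippocampus, clinical animals 1, 2 and 3 came from 1 run and clinical animal 4 and the oral animals from another. In the liver only oral animal 3 came from a run of its own.

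The first question was whether the same fetus was on, or off, in all of its tissues. For a minority of the transcripts it was, with high counts in some animals against none in others. For most of them, the state in one tissue gave little information on the state in another. Over all 236 transcripts, 2 libraries of the same animal from different tissues were in the same state for 59.4% ± 3.50 of transcripts (SD over 24 library pairs, range 52.3 to 66.1%), counting only transcripts that were on or off in both. Libraries of different animals were in the same state for 50.4% ± 4.08 (168 library pairs, range 39.3 to 63.9%). The means stood apart by more than either SD, while the ranges overlapped. The pairs here and below share libraries, so each SD over pairs is a description and not a spread over independent units. In bulk tissue, fewer cells of a type and less RNA per cell cannot be told apart.

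**Figure D1:**
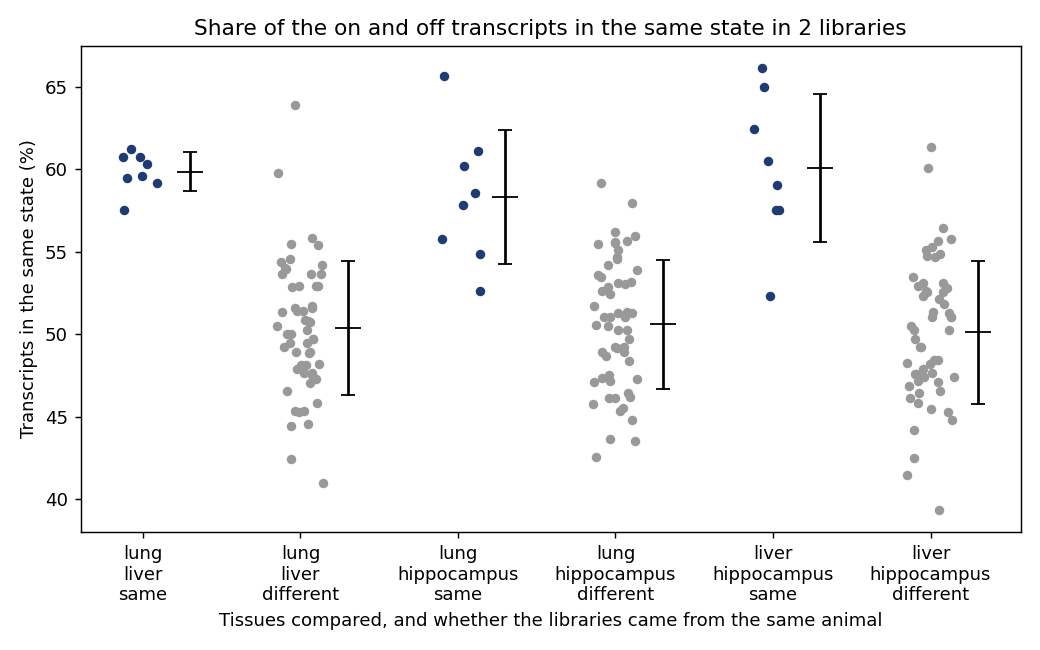
Each point is a pair of libraries from 2 tissues, and the vertical axis is the percentage of the 236 transcripts in the same state in both, among those on or off in both. Blue points are pairs from the same animal (8 per tissue pair), grey points are pairs from different animals (56 per tissue pair), and bars are mean ± SD; same-animal means lie between 58.3 and 60.1% and different-animal means between 50.1 and 50.6%.

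The shares were alike in the 3 tissue pairs. Lung and liver of the same animal were in the same state for 59.9% ± 1.19 of transcripts, against 50.4% ± 4.05 for different animals. Lung and hippocampus gave 58.3% ± 4.08 against 50.6% ± 3.91. Liver and hippocampus gave 60.1% ± 4.49 against 50.1% ± 4.32. When each library was matched to the 8 libraries of another tissue, its own animal was the closest in 36 of 48 searches, and the worst rank of the own animal was 6 of 8. The hippocampus to lung search was the least exact, with 4 of 8 own animals closest. Of the same-animal pairs, the 3 from a single run gave 60.2% and the 21 from different runs 59.3%, while different animals gave 49.7% within a run and 50.5% across runs. The 3 pairs were lung and liver of clinical animals 1 and 2 and lung and hippocampus of clinical animal 3. No oral animal had 2 tissues in the same run, so in same-animal pairs the run cannot be told apart from treatment and tissue pair. Different animals with the same treatment were in the same state for 51.0% ± 3.90 and those with different treatments for 49.9% ± 4.15, a gap well within the spread.

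The test of an animal effect asked, for each transcript, whether counts differed among the 8 animals after the mean of each tissue was taken out. It was fitted by edgeR's quasi-likelihood test over 33715 transcripts, with 7 animal terms, and called at a Benjamini-Hochberg adjusted p under 0.1. Of the 236 transcripts, all of which passed the filter on low counts, 34 were called, or 14.4%, against 2.09% of all transcripts tested. At an unadjusted p under 0.05 there were 55, or 23.3%, against 9.26% of all. DESeq2's likelihood ratio test called 42, or 17.8%, against 4.99% of all, and 31 transcripts were called by both tools. Transcripts that met the rule in exactly 2 tissues were called in 3.94% of cases (35 of 888) and those that met it in exactly 1 tissue in 1.21% (34 of 2816 tested). All these shares are a description, since a transcript with the same state in every tissue of an animal meets the rule in all 3 tissues more readily, so that the rule itself favours such transcripts. With the sequencing run as a covariate 25 of the 34 calls were kept and none was gained. Over all 33715 transcripts tested, the calls fell from 703 to 364 with this covariate. Of the 34, 23 were called whichever animal was left out.

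The counts behind the calls can also be read as contradictions between the tissues of an animal. An animal was counted as contradictory for a transcript if it was on in at least 1 tissue and off in at least 1 other. Of the 236 transcripts, 25 had no contradictory animal, and all 25 were among the 34 called. The remaining 9 called transcripts had 1 to 3 contradictory animals. The other 202 transcripts had a median of 5 contradictory animals of 8, and 8 of them were contradictory in every animal. Their libraries were in the same state for 53.1% ± 4.04 of transcripts within an animal and for 50.8% ± 4.20 between animals. For the 34, the corresponding shares were 96.0% ± 3.69 and 47.8% ± 14.98. The contradictions and the shares of both sets were taken from the same counts as the calls and only describe how far the calls go.

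**Figure D2:**
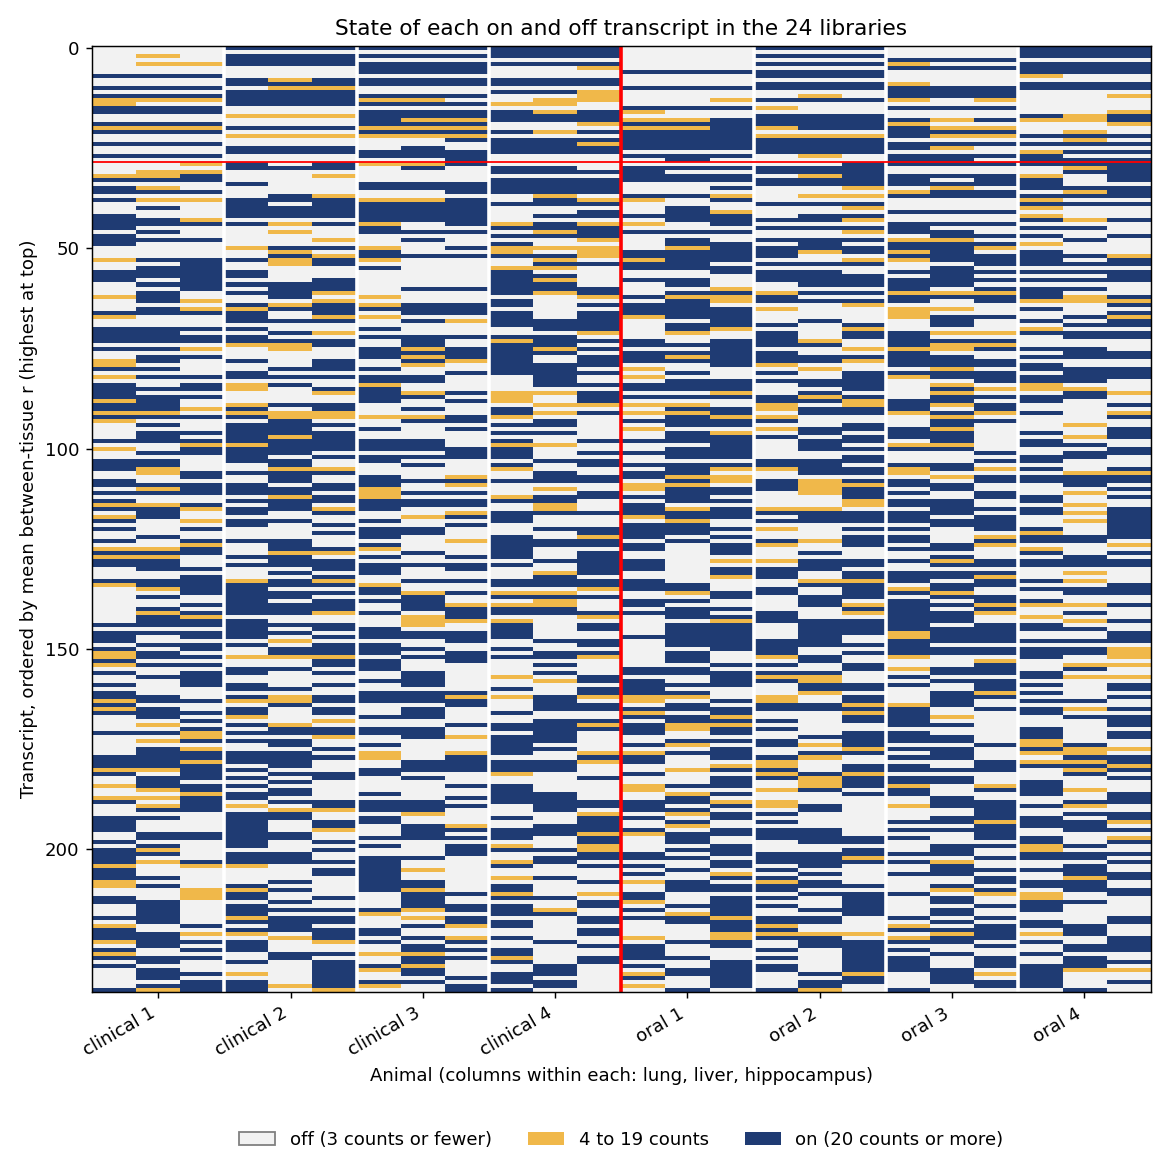
Each row is 1 of the 236 transcripts and each column 1 of the 24 libraries, grouped by animal with lung, liver and hippocampus side by side. Rows are ordered by the mean between-tissue correlation, with the 29 transcripts at 0.8 or more above the horizontal red line, and the vertical red line parts clinical from oral animals; above the horizontal line most blocks of 3 columns have 1 colour, and below it colours mix within an animal.

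Correlations of log2(CPM + 0.5) over the 8 animals, averaged over the 3 tissue pairs, are given as a description, since the points share libraries and depth. The median of this mean correlation was 0.08 for the 236 transcripts and 0.06 for 31293 other tested transcripts, so the middle of both distributions lay close together. The upper end lay further apart. A mean correlation of 0.8 or more was found for 29 of the 236 transcripts, or 12.3%, and for 1.06% of the others. It was below 0 for 93 transcripts, or 39.4%, and for 41.5% of the others.

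**Figure D3:**
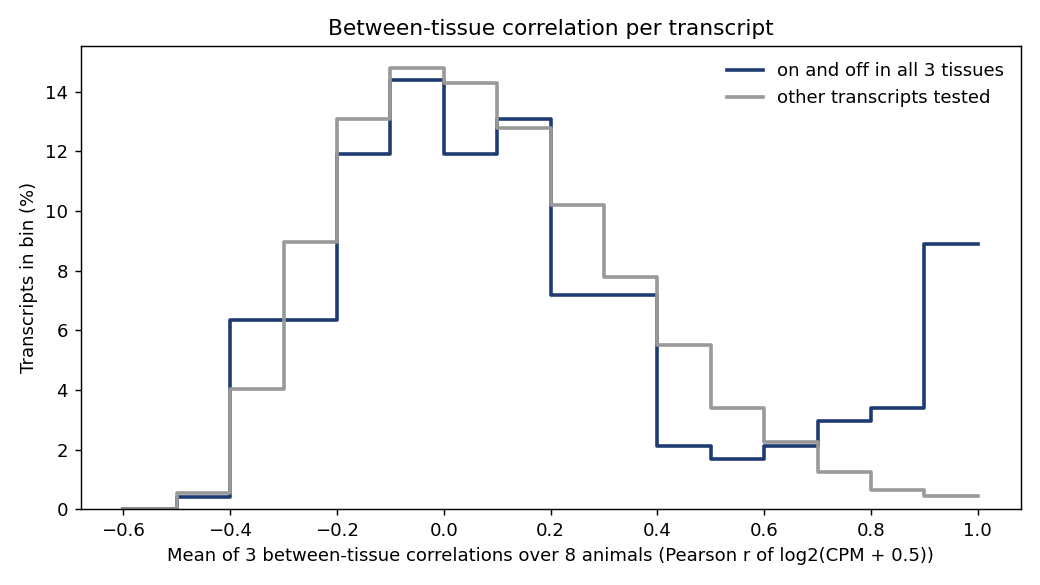
The horizontal axis is the mean of 3 between-tissue Pearson correlations over 8 animals for each transcript, and the vertical axis the percentage of transcripts per bin of 0.1. The blue line is the 236 on and off transcripts and the grey line 31293 other tested transcripts; the bin from 0.4 to 0.5 holds 2.12% of the on and off transcripts and 5.50% of the others, and the last bin holds 8.90% of the on and off transcripts and 0.43% of the others.

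The smallest p of the animal test belonged to ENSMMUT00000066942.1. Its clinical lung counts were 0, 283, 250 and 308 in animals 1 to 4, and its oral lung counts 0, 235, 0 and 185. In the liver they were 0, 365, 387 and 367 in the clinical animals and 0, 343, 0 and 315 in the oral animals. In the hippocampus they were 0, 62, 54 and 72 against 0, 74, 0 and 64. Clinical animal 1, oral animal 1 and oral animal 3 thus had no count in any tissue, and the other 5 animals were on in all, with no value between the groups. The adjusted p of the animal test in edgeR was 1.10e-08, and the mean between-tissue correlation was 0.998.

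The same animals were on and off for 4 further transcripts. ENSMMUT00000031304.3 was on at 860 to 975 counts in lung, 555 to 944 in liver and 374 to 700 in hippocampus. Its 9 values in the 3 off animals were 0 except for 4 counts in the liver of clinical animal 1. ENSMMUT00000076611.1 was on at 839 to 1055 counts in lung, 558 to 883 in liver and 419 to 541 in hippocampus. Here the off animals kept a trace of up to 14 counts, in the liver of clinical animal 1. ENSMMUT00000057754.1 was on at 101 to 631 counts in lung, 312 to 515 in liver and 234 to 457 in hippocampus, with 9 counts in the lung of oral animal 3 as the highest value of an off animal. Their adjusted p in edgeR was 3.99e-08, 4.10e-08 and 1.46e-05, in that order. The fifth, ENSMMUT00000075967.1, had 303 to 450 counts in 4 of its 5 on animals in the lung and 9 in oral animal 4, and an adjusted p of 0.0144.

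ENSMMUT00000056630.1 followed the same order with lower counts in clinical animal 2, which had 19, 9 and 15 counts in lung, liver and hippocampus and was thus neither on nor off. The complement of this set was also found. ENSMMUT00000025419.2 was on in clinical animal 1, oral animal 1 and oral animal 3 and not in the other 5. Its counts in these 3 animals were 472, 719 and 220 in lung, 232, 665 and 1257 in liver and 827, 755 and 685 in hippocampus. All other libraries held 0 counts except the lung of oral animal 2, with 10. Its adjusted p in edgeR was 0.00468, but it rose above 0.1 when any tissue was left out, to at most 0.167. Of the 25 transcripts without a contradictory animal, the 5 above were the only ones to share an identical set of on animals, and every other set was held by 1 transcript.

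**Figure D4:**
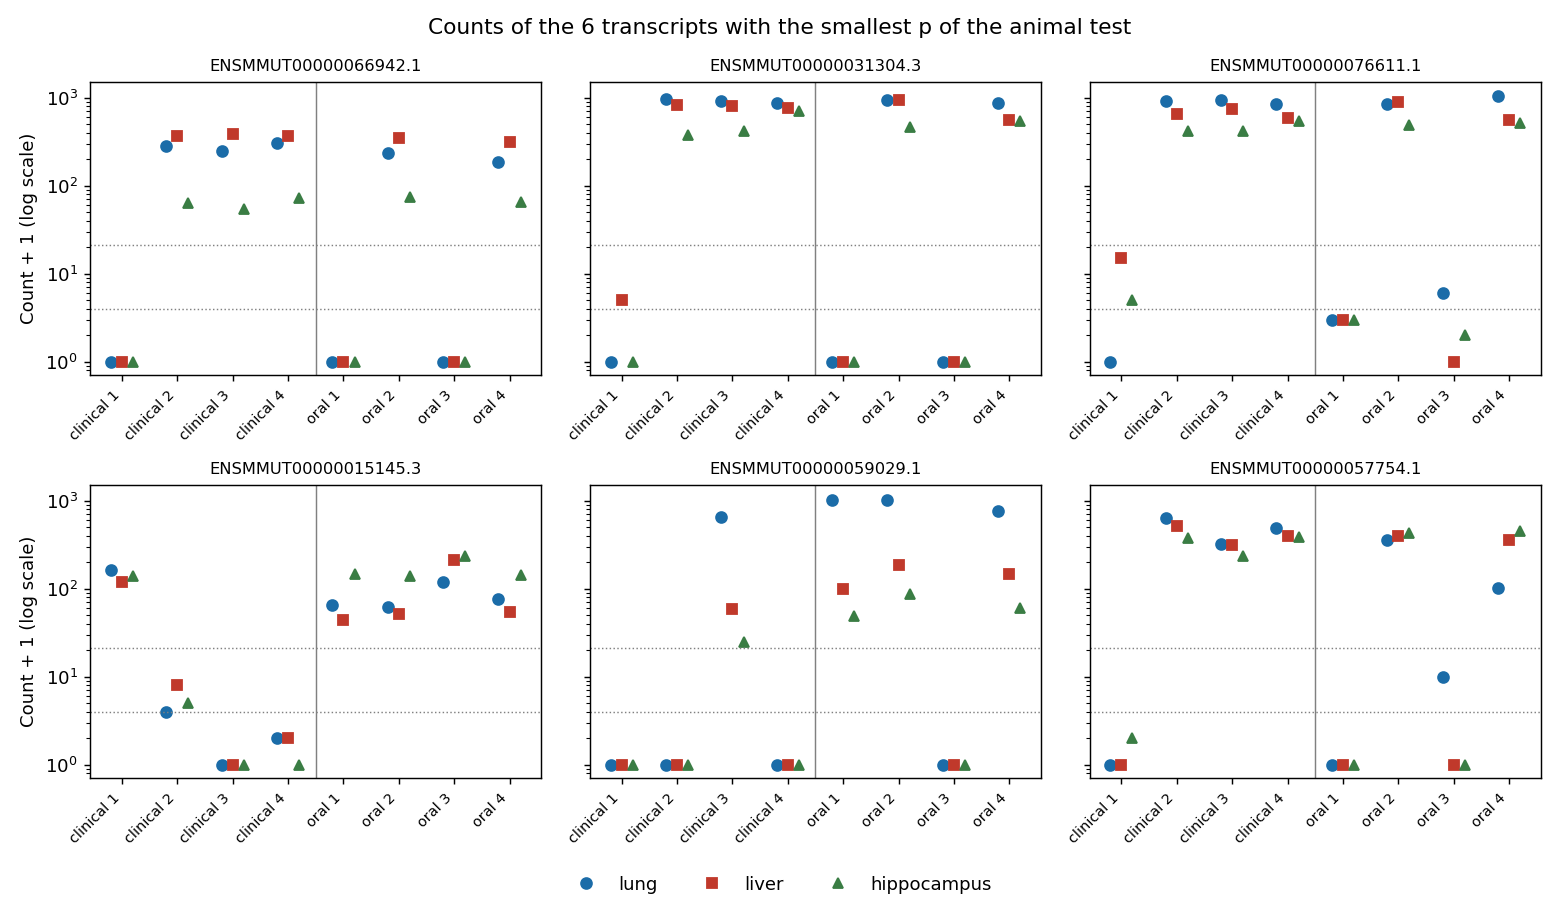
Count + 1 on a log axis in lung (circles), liver (squares) and hippocampus (triangles) for each of the 8 animals, in the 6 transcripts with the smallest p of the animal test. Dotted lines mark the limits for off and on, and the vertical line parts clinical from oral animals; in 4 of the 6 panels clinical animals 2, 3 and 4 and oral animals 2 and 4 are high in all tissues.

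Other transcripts divided the animals differently. ENSMMUT00000059029.1 was on in clinical animal 3 and oral animals 1, 2 and 4, and had 0 counts in the 12 libraries of the other 4 animals. Its lung counts were 657 in clinical animal 3 and 1031, 1022 and 756 in the 3 oral animals, its liver counts 57, 98, 183 and 144, and its hippocampus counts 24, 48, 85 and 59. Counts were more than 10 times lower in the hippocampus than in the lung of each of these animals, while the set of on animals was the same. The adjusted p in edgeR was 6.37e-06.

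ENSMMUT00000057110.1 was on in clinical animal 2 and oral animal 3, with clinical animal 4 on in lung and liver only. Counts in clinical animal 2 were 1277, 217 and 58 in lung, liver and hippocampus, those in clinical animal 4 were 451, 54 and 11, and those in oral animal 3 were 1124, 358 and 76, with 0 in every other library. ENSMMUT00000027657.3 was on in clinical animal 3 and oral animals 3 and 4, at 65 to 71 counts in lung, 44 to 82 in liver and 67 to 94 in hippocampus, against at most 4 counts elsewhere. Their adjusted p in edgeR was 2.02e-04 and 1.43e-04.

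Only 4 transcripts had the same state, on or off, in all 3 tissues of all 8 animals. These were ENSMMUT00000066942.1 and ENSMMUT00000059029.1 and a pair that was on in only 2 animals. ENSMMUT00000032792.3 was on in clinical animal 2 at 732, 552 and 1686 counts in lung, liver and hippocampus and in oral animal 3 at 325, 811 and 1999 counts. ENSMMUT00000076668.1 was on in clinical animal 4 at 1082, 314 and 74 counts and in oral animal 4 at 546, 322 and 66 counts. Both held 0 counts in the other 18 libraries. Their adjusted p in edgeR was 0.0037 and 0.00342, while DESeq2's likelihood ratio test gave 0.657 and 0.846. For ENSMMUT00000076668.1 the adjusted p in edgeR was 0.166 without clinical animal 4 and 0.141 without oral animal 4.

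The transcript with the highest median on count, 1152, was ENSMMUT00000003284.3. Clinical animal 4, oral animal 1 and oral animal 2 were on in all tissues, at 965, 1449 and 2098 counts in lung, 196, 354 and 1339 in liver and 1722, 83 and 2475 in hippocampus. Clinical animal 3 had 172 counts in the hippocampus and 0 in lung and liver, so the tissues of 1 animal did not have the same state. Its adjusted p in edgeR was 0.0372, and it was 0.117 without clinical animal 4 and 0.222 without oral animal 2. Without the lung it was 0.786 and without the liver 0.619.

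At the other end stood transcripts whose on animals changed from tissue to tissue. ENSMMUT00000022775.3 had the lowest mean correlation, -0.43. In the lung, clinical animals 1, 2 and 4 and oral animals 2 and 3 were on, at 28 to 64 counts. In the liver only oral animals 1 and 4 were on, at 20 and 21 counts, and in the hippocampus only clinical animals 1 and 3, at 27 and 43 counts. Every value of this transcript was low, but ENSMMUT00000059906.1 behaved in the same way at higher counts, with a mean correlation of -0.37. Oral animal 3 held 0 counts of it in lung, 285 in liver and 150 in hippocampus, and clinical animal 4 held 120, 60 and 0. Its on values ran from 60 to 285 counts and its 10 off values were all 0. For ENSMMUT00000062766.1 the mean correlation was -0.38, with on counts of 20 to 90.

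How bimodal the counts were was the second question. Of the 5664 values of the 236 transcripts, 2495 were off (44.1%), 602 lay between 4 and 19 counts (10.6%) and 2567 were on (45.3%). Of the off values, 91.6% were exact zeros. The median on value was 53 counts. Part of this shape was fixed by the rule, which sets 4 of the 8 values of each tissue. Of the 2832 values that it did not set directly, the middle 4 of each tissue, 21.3% lay between 4 and 19 counts. In transcripts that met the rule in 1 tissue only, the same share was 39.1% in lung, 35.8% in liver and 34.5% in hippocampus. Both sets were chosen by the rule on these same counts, so the gap between their shares is a description.

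Counts left the space between off and on empty in 44 of the 236 transcripts, and 129 had no off value above 0. The 34 transcripts with an animal effect were not more bimodal than the other 202 by this measure, at 22.1% and 21.1% of middle values between 4 and 19 counts. They had fewer exact zeros among their off values, 84.2% against 92.9%, and higher on values, with a median of 119 against 48 counts. The 34 were called from these same counts, so these differences are a description. Scaling every library to the smallest total raised the share of middle values between 4 and 19 counts from 21.3 to 27.8%.

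The order of the on levels between tissues depended on the scale. By library totals, the median on level per transcript was 2.39 CPM in lung, 1.56 CPM in liver and 1.69 CPM in hippocampus, and it was highest in the lung for 140 transcripts, in the hippocampus for 54 and in the liver for 42. With totals multiplied by edgeR's TMM factors, a scale added after the data were seen, the medians were 1.81, 2.35 and 1.49 CPM in the same order of tissues, and the liver was highest for 135 transcripts, the lung for 69 and the hippocampus for 32. The highest of the 3 median on levels was a median of 2.14 times the lowest by library totals and 2.23 times with TMM factors. The gap of ENSMMUT00000068046.1 was the widest of the 236 by library totals but not with TMM factors. Its lung counts were 2518, 0, 0 and 1245 in the clinical and 2323, 1756, 1541 and 2239 in the oral animals. In the hippocampus they were 202, 0, 0 and 165 against 444, 342, 166 and 370. In the liver the same clinical animals were on, at 120 and 26 counts, and oral animals 1 and 2 at 71 and 95, but oral animals 3 and 4 held 2 counts each. Clinical animals 2 and 3 were at 0 in all tissues, and the adjusted p of the animal test in edgeR was 0.00461.

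Transcripts lay close to the limits of the rule on both sides. ENSMMUT00000003620.3, just inside, had second highest counts of 41, 20 and 37 in lung, liver and hippocampus. ENSMMUT00000002677.2, just outside, had 27, 27 and 19. In 64 of the 236 transcripts the second highest value was under 25 counts in at least 1 tissue, and 461 transcripts missed the rule by the on limit of a single tissue.

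The third question was whether the states sorted by treatment. No transcript of the 236 was called between oral and clinical animals by edgeR's quasi-likelihood test, in any tissue or in the sum of the 3 tissues. A call needed an adjusted p under 0.1, an unadjusted p under 0.05 and a change of 1.5-fold. In the lung 0 of 156 transcripts that passed the filter were called, against 0.00369% of all tested, and 7 (4.49%) had an unadjusted p under 0.05, against 9.15% of all. In the liver 0 of 161 were called, against 0%, and 5 (3.11%) had such a p, against 7.08%. In the hippocampus 0 of 167 were called, against 0%, and 2 (1.20%) had such a p, against 3.11%. In the sum over the tissues of an animal 0 of 228 were called, against 0%, and 11 (4.82%) had such a p, against 11.2%. The 80, 75, 69 and 8 transcripts missing from these fits did not pass the filter, and with no filter all 236 were tested and again none was called.

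DESeq2's Wald test, run on every transcript with a count, did call some. It called 12 of 222 transcripts in lung, 3 of them higher in oral animals, against 0.864% of all tested. In the liver it called 10 of 217, 7 of them higher in oral animals, against 0.778% of all. In the hippocampus it called 5 of 217, 2 of them higher, against 0.165%, and in the sum 5 of 228, 2 of them higher, against 1.02%. Of the transcripts described next, it called ENSMMUT00000030735.3 and ENSMMUT00000003782.3 in the liver, ENSMMUT00000019866.3 in the lung and ENSMMUT00000029479.3 in the hippocampus. It called ENSMMUT00000043498.2 and ENSMMUT00000078327.1 in lung, liver and sum, and ENSMMUT00000058787.1 in lung and hippocampus, with no adjusted p given for the last in the sum. In the liver and the sum it called ENSMMUT00000039137.2, and in the hippocampus ENSMMUT00000055768.1. ENSMMUT00000022775.3, described above for its low correlation, was also called in the hippocampus. ENSMMUT00000074823.1 and ENSMMUT00000005937.3 were called by neither tool. The transcripts were chosen for low and high libraries side by side, so their shares beside those of all transcripts are a description.

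The lowest p in each direction shows what such differences were made of. In the liver, ENSMMUT00000030735.3 had 0 counts in the 4 clinical animals and 97, 43, 56 and 51 in the oral animals, which is at least 82.4-fold higher when 3 counts over the clinical group are taken as the limit of a count of 0. The adjusted p in edgeR was 0.473. In the lung it had 0, 112, 168 and 84 counts against 0, 0, 201 and 62, and in the hippocampus 0, 108, 0 and 66 against 56, 151, 112 and 0. The complete separation in the liver was thus absent from both other tissues.

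ENSMMUT00000003782.3 stood the other way round in the liver, with 500, 37, 99 and 31 counts in the clinical animals and 0 in all oral animals, at least 222-fold lower in the oral group, with an adjusted p of 0.581 in edgeR. Clinical animal 1 held most of these counts, and without it the limit was at least 73.2-fold lower. In the lung oral animals 1, 3 and 4 held 123, 67 and 78 counts of it, and in the hippocampus oral animals 1, 2 and 4 held 34, 111 and 64. In the lung, ENSMMUT00000019866.3 had 17, 48, 29 and 31 counts in the clinical and 0 in the oral animals, at least 36.8-fold lower in the oral group. It was also at 0 in the oral hippocampus, where clinical animals 3 and 4 had 34 and 28 counts, but oral animals 3 and 4 had 42 and 23 counts in the liver. ENSMMUT00000074823.1 was the reverse in the lung, with 0, 1, 12 and 0 against 1, 295, 39 and 282 counts, a log2 fold change of 5.66 ± 1.65 (SE). It ranged from 5.10 without oral animal 2 to 8.60 without clinical animal 3, and was 4.74 with the sequencing run as a covariate. In the liver the clinical animals held the highest counts of it, 134 and 325.

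In the hippocampus the lowest p in each direction belonged to ENSMMUT00000029479.3 and ENSMMUT00000005937.3. The former had 100, 19, 174 and 138 counts in the clinical and 0, 8, 4 and 0 in the oral animals, with a log2 fold change of -5.52 ± 1.07 and an adjusted p of 1 in edgeR. The log2 fold change ran from -6.60 without oral animal 2 to -5.09 without clinical animal 3, and was -7.96 with gestational age as a covariate. In the lung and liver its oral counts reached 348 and 162. The latter had 0, 0, 0 and 20 against 150, 0, 49 and 58 counts in the hippocampus and the opposite order in the lung, with 246, 113, 127 and 59 against 48, 0, 0 and 114.

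Over the sum of the tissues, ENSMMUT00000043498.2 had the lowest p for a lower level in oral animals. Its summed counts were 10, 313, 487 and 12 in the clinical animals and 3, 0, 0 and 0 in the oral animals. The log2 fold change was -8.04 ± 1.81 with an adjusted p of 0.233 in edgeR. It was -10.8 without oral animal 1, whose 3 counts are the only ones in the oral group, -7.09 without clinical animal 3 and -2.11 with gestational age as a covariate. It was on in clinical animals 2 and 3 only, at 77 and 115 counts in lung, 164 and 338 in liver and 72 and 34 in hippocampus. Its animal effect was called, with an adjusted p of 0.00276 in edgeR. ENSMMUT00000058787.1 was the only other transcript off in every oral library and on in clinical animals in all 3 tissues. Clinical animals 2, 3 and 4 held 33, 38 and 62 counts in lung, 15, 23 and 44 in liver and 59, 42 and 107 in hippocampus, while clinical animal 1 held 0, 0 and 2 and no oral library more than 2. It was called in the sum when clinical animal 1, the clinical animal that was off, was left out, and in no other fit of the sum by edgeR. That fit called 12 of 34252 transcripts over all, against 0 of 33652 with every animal. In the reverse direction, no transcript was off in every clinical library and on in at least 2 oral animals in all 3 tissues.

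For 3 transcripts all clinical libraries were off, with at least 2 oral libraries on, in 2 of the tissues. The share over all transcripts is not given for this count. ENSMMUT00000015145.3, which was not among these 3, was split along treatment except for 1 clinical animal. All oral animals were on in all tissues, at 61 to 118 counts in lung, 43 to 209 in liver and 137 to 237 in hippocampus, and clinical animals 2, 3 and 4 held at most 7 counts. Clinical animal 1, however, held 161, 119 and 138 counts, within or above the oral range. ENSMMUT00000078327.1 was almost a mirror image, with 913, 0, 368 and 312 counts in the clinical lungs against at most 7 in the oral lungs. Their adjusted p of the animal test in edgeR was 1.95e-06 and 5.22e-04, and that of ENSMMUT00000078327.1 was 0.543 without the lung. In both transcripts 1 clinical animal stood with the oral group.

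The 4 oral and 4 clinical values did not overlap for 6 of the 236 transcripts in lung (2.54%), against 4.86% of all transcripts with a count. They did not overlap for 7 in the liver (2.97%), against 3.21% of all, and for 3 in the hippocampus (1.27%), against 1.96%. All libraries of 1 treatment were off, with at least 2 of the other on, for 16 transcripts in lung (6.78%), 16 in liver (6.78%) and 13 in hippocampus (5.51%). Among all transcripts that met the on and off rule in the same tissue these shares were 6.51%, 6.15% and 5.95%. Only 2 transcripts had values without overlap in the same direction in 2 tissues. These were ENSMMUT00000043498.2, lower in oral lung and liver, and ENSMMUT00000039137.2, higher in both. The share over all transcripts is not given for 2 tissues, so this count is a description.

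**Figure D5:**
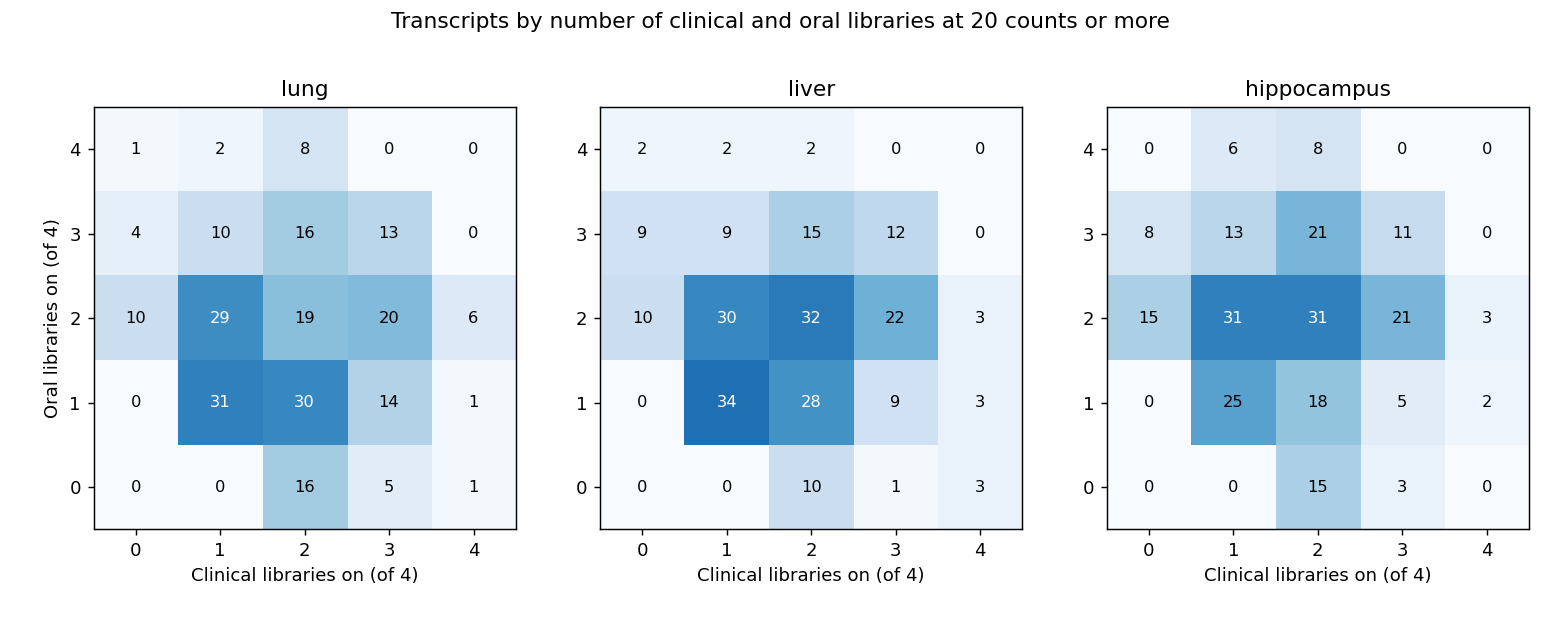
For each tissue, the number of the 236 transcripts with a given number of clinical libraries on (horizontal axis) and oral libraries on (vertical axis). Most transcripts lie in the middle of each grid, and the 2 corners with all libraries of 1 treatment on and none of the other hold 1 and 1 transcripts in lung, 2 and 3 in liver and 0 and 0 in hippocampus.

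The number of transcripts on per library was 93 to 119 in lung, 86 to 120 in liver and 94 to 130 in hippocampus. Only in the hippocampus did the treatments lean apart, with 100 ± 7.09 on in clinical and 117 ± 11.6 on in oral libraries (SD, n = 4 each). There, 102 transcripts were on in more oral than clinical libraries and 67 in fewer. Library totals moved with this, at 22537044 to 32788826 counts in the clinical and 32836217 to 35254898 counts in the oral hippocampus. After every library was scaled to the smallest total, the means were 90.5 ± 9.68 and 91.8 ± 11.6. In the lung 93 transcripts were on in more clinical and 80 in more oral libraries, and in the liver 79 and 79.

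Whether the treatment difference varied with the tissue was tested by the interaction of both in edgeR. None of the 236 transcripts was called, against 0.109% of all tested, and 19 (8.05%) had an unadjusted p under 0.05, against 7.66%. DESeq2's likelihood ratio test called 2 of 231, ENSMMUT00000003782.3 and ENSMMUT00000055768.1, against 1.58% of all.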

How the data were processed

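Bulk RNA-seq counts per transcript were analysed for 24 libraries, 8 per tissue, with 4 fetuses per treatment. Per the labels, the submitters' processing notes name STAR, featureCounts and DESeq2, without versions. Reads were 75 bases long, and the paper's methods give MMUL1.0 as the genome. The authors deposited raw counts for lung and hippocampus and estimated counts, many of them not whole, for the liver. Of the liver values of the 236 transcripts, 73.0% were not whole. How reads shared by transcripts were divided is not given in the sources used here.

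Counts were rounded and the rule was applied in Python 3.11.15. The transcripts, lists and tests were chosen with earlier results of these data known. edgeR 4.0.16 (TMM, filterByExpr, quasi-likelihood test) was fitted across all transcripts, with Benjamini-Hochberg adjustment. DESeq2 1.42.0 and limma 3.58.1 (limma-trend, prior count 2) were alternatives. The animal test had tissue and animal as terms, the treatment tests used the 8 libraries of a tissue or the summed counts of an animal, and the interaction test had tissue and treatment. Groups and animal numbers came from the labels. An animal number in the titles was taken as 1 fetus, and its gestational age was the same in all tissues. The number pairs the tissues, so it was the term tested, and the interaction was also fitted with a replicate block for the animal.

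Transcripts were named by rule. These were the 10 with the smallest p of the animal test, the smallest p per direction and tissue or sum, the 5 highest median on counts, the 3 lowest mean correlations, up to 10 with 1 state per animal throughout, and 2 on each side of the limits. Others were named after their values were seen, namely ENSMMUT00000075967.1, ENSMMUT00000058787.1, ENSMMUT00000068046.1, ENSMMUT00000039137.2, ENSMMUT00000055768.1 and those of the closing section. Fold limits against a group at 0 used 3 counts over the group and cover counting error only. Scripts were tested on simulated data. Alternatives were another tool, RLE normalization, no filter, sequencing run or gestational age as a covariate, other on and off limits, scaling to the smallest library and leaving out each animal or tissue. Within-run fits and on levels scaled by TMM factors were added after the data were seen. Nothing links the transcripts to genes, so lists of genes were not used.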

Additional observations from a re-analysis of the deposited data

How the results depend on the processing

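Limits concern depth, the thresholds and the small number of animals. With 20 counts as the on limit, a transcript at about 1 CPM can be on in a deep library and between the limits in a shallower one. The 236 transcripts became 196 when off meant 0 counts, 166 when counts were scaled to the smallest library and 70 when on meant 50 or more counts. With on at 50 or more counts, same-animal libraries were in the same state for 68.0% and different animals for 56.1%. Over the 3 tissues, 15 cases of 1 treatment all off were found among those 70 transcripts, against 45 among the 236. The set shrank as well, so these counts do not show a lower share. The share over all on and off transcripts is not given at this limit. Scaling to the smallest library gave 27.8% of middle values between the limits.

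The number of transcripts with an animal effect was 14 without the lung, 17 without the liver and 17 without the hippocampus. These fits had 8 libraries fewer, and over all transcripts tested they called 168, 214 and 200, against 703 in the main fit. When 1 animal was left out the number was 26 to 32, and over all transcripts tested 469 to 619. Other alternatives of the animal test gave 25 to 43, and the 25 were found with the sequencing run as a covariate. DESeq2 called 12 transcripts between treatments in the lung, 10 in the liver, 5 in the hippocampus and 5 in the sum, and 2 by the interaction, where edgeR called none, and the cause was not tested. Leaving out 1 animal gave 0 calls in each tissue and for the interaction, and 0 to 1 in the sum, where the 1 was ENSMMUT00000058787.1 without clinical animal 1. Same-animal libraries were in the same state for 58.9 to 59.8% when 1 animal was left out. The interaction fitted with the animal as a replicate block, which pairs the tissues of a fetus, called 0 of the 236 transcripts. The treatment tests had no such fit, since each animal received 1 treatment. RLE normalization, no filter and a covariate for gestational age or run called none between treatments. Fits within the larger sequencing run, added after the data were seen, also called none, but they held 2 clinical and 4 oral libraries in lung, 4 and 3 in liver and 1 and 4 in hippocampus. In the hippocampus the lone clinical library was assumed to vary like the oral ones, so this fit says little.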

Other observations

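In 4 transcripts the counts came in whole steps. They were found after the values were seen, by asking for at least 6 values above 3 counts, a smallest one of at least 20, and all of them within 5% of a whole multiple, at most 5, of 1 step. Of the 236 transcripts, 44 had enough such values and 4 met it. Of 17907 transcripts in the whole tables with enough such values, 13 met it.

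ENSMMUT00000062025.1 held 27 or 28 counts, or 55 or 56, in its 13 on libraries, and 0 in all others. Its lung counts were 55, 0, 0 and 28 in the clinical and 56, 56, 28 and 0 in the oral animals, its liver counts 27, 28, 28 and 0 against 28, 56, 28 and 0, and its hippocampus counts 0, 0, 0 and 28 against 27, 0, 0 and 0. ENSMMUT00000058176.1 held 26 or 27, 53 or 80 counts in 10 libraries. ENSMMUT00000065552.1 held 23 or 24 counts, or 48, in 12 libraries. In each of them some on libraries held a single step, and no library held a count between 0 and that step.

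The fourth, ENSMMUT00000064343.1, had the lowest p of the 236 for a higher level in oral animals in the sum of the tissues. Its summed counts were 46, 95, 47 and 47 in the clinical animals and 237, 94, 94 and 141 in the oral animals, with a log2 fold change of 1.17 ± 0.40 (SE) and an adjusted p of 0.352 in edgeR. The log2 fold change was 0.79 without oral animal 1, 1.49 without clinical animal 2 and 1.90 with gestational age as a covariate. Every one of its 11 values above 0 lay at 46 or 47, 94 or 95, or 190 counts. Its lung was on in clinical animal 2 and oral animal 1 only, its liver in clinical animals 1 and 3 and oral animals 2 and 4, and its hippocampus in clinical animal 4 and all oral animals. None of the 4 transcripts had an animal effect at an adjusted p under 0.1 in edgeR. What sets the size of a step was not tested.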
